A study of Mus musculus with 9 samples.

Results

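The 10 genes described here encode the parts of MHC class I antigen presentation and of the immunoproteasome that were listed by symbol for the mouse kidney: the class I heavy chains *H2-K1* and *H2-D1*, their light chain *B2m*, the peptide transporter *Tap1* and *Tap2*, the loading factor *Tapbp*, the immunoproteasome subunits *Psmb8*, *Psmb9* and *Psmb10*, and the regulator *Nlrc5*. All 10 of the 10 symbols were found among the 24421 genes of the deposited table, and all 10 were among the 15583 genes that passed the filter on low values and were tested. They were taken by name and function, though earlier results of these data were known.

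MHC class I molecules display short peptides from the cell's own proteins on the surface of nearly all nucleated cells, where CD8 T cells and natural killer cells read them. The peptides are cut by the proteasome, whose catalytic subunits are exchanged for immunoproteasome subunits under interferon, and are carried into the endoplasmic reticulum by the TAP transporter. Renal tubular epithelium carries class I molecules at rest, and interferon gamma raises them.

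RNA was sequenced from 9 mice of the C57BL/6 strain in 3 groups of 3. The *db/m* mice were heterozygous for the leptin receptor mutation *Lepr*db and not diabetic, the *db/db* mice were homozygous and given vehicle, and the *db/db*-dapa mice were homozygous and drank the SGLT2 inhibitor dapagliflozin at 1.5 mg/kg per day for 8 weeks. Mice of all 3 groups also carried the inducible Cre knock-in SLC34a1GCE, which is driven by the locus of a proximal tubule phosphate transporter, and the R26tdTomato reporter. All received 3 mg of tamoxifen 5 times at 8 weeks of age. Each library came from 1 mouse and was labelled kidney, while the study's methods describe tdTomato-positive cells sorted from dissociated cortex.

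Depth differed among the mice. Total estimated counts were 6571572, 5754910 and 4817721 in *db/m* replicates 1, 2 and 3, 2733349, 4951113 and 7635669 in *db/db*, and 6981225, 7626107 and 9033123 in *db/db*-dapa. A floor of 3 counts corresponds to between 0.339 CPM (counts scaled to library size) in *db/db*-dapa replicate 3 and 1.02 CPM in *db/db* replicate 1, for counting error only. Levels below are CPM after scaling by trimmed mean of M values (TMM).

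The 16 proximal tubule markers were detected in every mouse, with summed CPM of 66010, 54280 and 58250 in *db/m*, 33130, 37210 and 41250 in *db/db*, and 42860, 42020 and 46280 in *db/db*-dapa. By fitted fold change 11, 12 and 12 of the 16 were higher in *db/db* against *db/m*, *db/db*-dapa against *db/m* and *db/db*-dapa against *db/db*, with median log2 fold changes of 0.34, 0.39 and 0.22 (the first 0.08 with *db/db* replicate 3 left out, the last 0.06 with *db/db* replicate 1 left out). The marker with the highest level in the *db/m* mice, though not in the other groups, was *Kap*, a kidney androgen-regulated gene. It was also the only marker that edgeR called in both comparisons with *db/m*. In the order above, DESeq2 called 2, 2 and 1 markers, limma 2, 1 and 0, and limma-voom with sample quality weights 3, 3 and 3. *Kap* was among them wherever any was called, and limma-voom also called *Slc7a13* in both comparisons with *db/m*. In edgeR *Kap* fell by 3.73 on the log2 scale in *db/db* (SE 0.36, adjusted p = 0.00117) and by 2.41 in *db/db*-dapa (SE 0.34, adjusted p = 0.0133). Its level was 35220, 23980 and 29000 CPM in *db/m*, 1469, 2026 and 3145 CPM in *db/db*, and 7229, 3515 and 5905 CPM in *db/db*-dapa. RNA of other kidney and blood cells was present as well, and fewer cells of a type cannot be told apart from less RNA per cell in such libraries.

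Several libraries stood apart; the gene named for each cell type below has the highest mean over all 9 mice. Leukocyte markers, 30 of 30 tested and led by *Cd74*, summed to 828, 585 and 312 CPM in *db/m*, 676, 621 and 195 CPM in *db/db*, and 513, 265 and 156 CPM in *db/db*-dapa. The sums of the 2 highest mice were those of *db/m* replicate 1 and *db/db* replicate 1, and *db/db* replicate 3 was the lowest of its group. Defining lymphocyte markers were at 0 in some mice, among them *Cd3d*, *Cd3e*, *Cd3g*, *Cd4*, *Cd8a*, *Cd79a*, *Cd79b*, *Ms4a1*, *Nkg7* and *Gzma*, as was *S100a9*. The sort described by the study would remove cells without tdTomato. Erythroid markers, 7 of 7 tested and led by *Hba-a1*, summed to 436, 199 and 550 CPM in *db/m*, 156, 1869 and 126 CPM in *db/db*, and 395, 67.7 and 38.2 CPM in *db/db*-dapa. Podocyte markers, 5 of 5 tested and led by *Podxl*, reached 255 CPM in *db/db*-dapa replicate 1 and lay between 18.0 and 80.9 CPM in the other mice. Distal nephron markers, 12 of 12 tested and led by *Umod*, reached 3214 CPM in *db/m* replicate 3 and lay between 1072 and 2228 CPM elsewhere. Endothelial markers, 12 of 12 tested and led by *Eng*, summed to between 73.9 and 355 CPM. Mesenchymal markers, 8 of 9 tested and led by *Acta2*, summed to between 5.66 and 33.1 CPM, with *Col1a1*, *Col3a1*, *Pdgfra* and *Lum* at 0 in some mice.

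The libraries also differed by transcript length. The mean log2(CPM + 1) of genes whose longest transcript exceeds 5000 bases, minus that of genes under 2500 bases, was 0.22, 0.42 and 0.05 in *db/m*, 0.42, 0.34 and 0.94 in *db/db*, and 0.50, 0.74 and 0.81 in *db/db*-dapa. The value of *db/db* replicate 3 was the highest and that of *db/m* replicate 3 the lowest. Results are therefore also given with single mice left out.

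The heavy chains form the peptide groove. *H2-K1* was measured at 45.0, 38.7 and 95.5 CPM in *db/m*, 158, 29.6 and 13.3 CPM in *db/db*, and 24.3, 16.4 and 12.7 CPM in *db/db*-dapa. Its highest value was in *db/db* replicate 1, the *db/db* mice lay on both sides of the *db/m* mice, and the *db/db*-dapa mice all lay under the *db/m* mice. *H2-D1* was measured at 306, 240 and 358 CPM in *db/m*, 193, 227 and 122 CPM in *db/db*, and 197, 123 and 115 CPM in *db/db*-dapa. All 3 *db/m* mice were above all mice of the other groups, which overlapped each other. *B2m*, the light chain that every class I heavy chain needs to reach the surface, was measured at 431, 387 and 284 CPM in *db/m*, 333, 317 and 156 CPM in *db/db*, and 303, 172 and 156 CPM in *db/db*-dapa. The lowest *db/m* mouse lay within the range of both other groups, and *db/db* replicate 3 was the lowest mouse.

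The ratio of the heavy chains set one mouse apart. *H2-K1* stood at 14.7, 16.1 and 26.7 CPM per 100 CPM of *H2-D1* in *db/m*, at 82.0, 13 and 10.9 in *db/db*, and at 12.4, 13.4 and 11.0 in *db/db*-dapa. Only *db/db* replicate 1 exceeded 26.7; the *db/db*-dapa mice all lay under the *db/m* mice, and the *db/db* mice overlapped both. Another class I pair, *H2-T10* per 100 CPM of *H2-T22*, stood at 44.4, 30.7 and 165 in *db/m*, 22.7, 52.0 and 39.0 in *db/db*, and 43.6, 32.3 and 31.9 in *db/db*-dapa. There the mouse apart was *db/m* replicate 3. This pair was singled out after its values were seen.

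TAP1 and TAP2 together form the transporter that pumps peptides into the endoplasmic reticulum, and tapasin, the product of *Tapbp*, holds an empty class I molecule at it. *Tap1* was measured at 15.1, 9.60 and 8.88 CPM in *db/m*, 10.9, 6.40 and 2.40 CPM in *db/db*, and 5.25, 3.15 and 3.39 CPM in *db/db*-dapa. The *db/db*-dapa mice lay under the *db/m* mice, while *db/db* replicate 1 lay among them. *Tap2* was measured at 32.4, 22.7 and 18.2 CPM in *db/m*, 15.6, 11.2 and 8.21 CPM in *db/db*, and 17.2, 7.75 and 8.60 CPM in *db/db*-dapa. *Tapbp* was measured at 90.4, 73.3 and 71.9 CPM in *db/m*, 63.6, 46.6 and 40.3 CPM in *db/db*, and 55.8, 50.3 and 39.5 CPM in *db/db*-dapa. For both *Tap2* and *Tapbp*, every *db/db* and *db/db*-dapa mouse was below every *db/m* mouse, and these lower groups overlapped each other.

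The immunoproteasome subunits replace the constitutive catalytic subunits *Psmb5*, *Psmb6* and *Psmb7* and shift cleavage toward peptides that fit class I. *Psmb8* was measured at 14.3, 9.42 and 6.66 CPM in *db/m*, 4.76, 7.40 and 1.64 CPM in *db/db*, and 3.69, 1.84 and 1.70 CPM in *db/db*-dapa. *Psmb9* was measured at 8.50, 2.27 and 3.78 CPM in *db/m*, 3.40, 3.0 and 0.379 CPM in *db/db*, and 2.27, 0.263 and 1.24 CPM in *db/db*-dapa. *Psmb10* was measured at 18.4, 8.90 and 12.7 CPM in *db/m*, 13.6, 6.80 and 2.02 CPM in *db/db*, and 5.82, 3.41 and 2.72 CPM in *db/db*-dapa. For *Psmb8* and *Psmb10* the *db/db*-dapa mice lay under the *db/m* mice and the *db/db* mice overlapped them, and for *Psmb9* all groups overlapped. *Psmb9* was at its floor of 0.379 CPM in *db/db* replicate 3 and under its floor of 0.394 CPM in *db/db*-dapa replicate 2. Summed, the 3 immunoproteasome subunits stood at 8.61, 4.62 and 3.55 CPM per 100 CPM of the 3 constitutive subunits in *db/m*, at 5.88, 3.37 and 1.30 in *db/db*, and at 2.98, 1.51 and 1.56 in *db/db*-dapa. The *db/db*-dapa mice were below all *db/m* mice on this ratio, and the *db/db* mice spanned both groups.

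NLRC5 drives transcription of the class I genes from a conserved promoter module. *Nlrc5* was measured at 11.8, 3.49 and 2.44 CPM in *db/m*, 1.36, 4.0 and 1.01 CPM in *db/db*, and 2.13, 2.89 and 1.02 CPM in *db/db*-dapa. The value of *db/m* replicate 1 stood above the rest, and the groups overlapped.

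**Figure D1:**
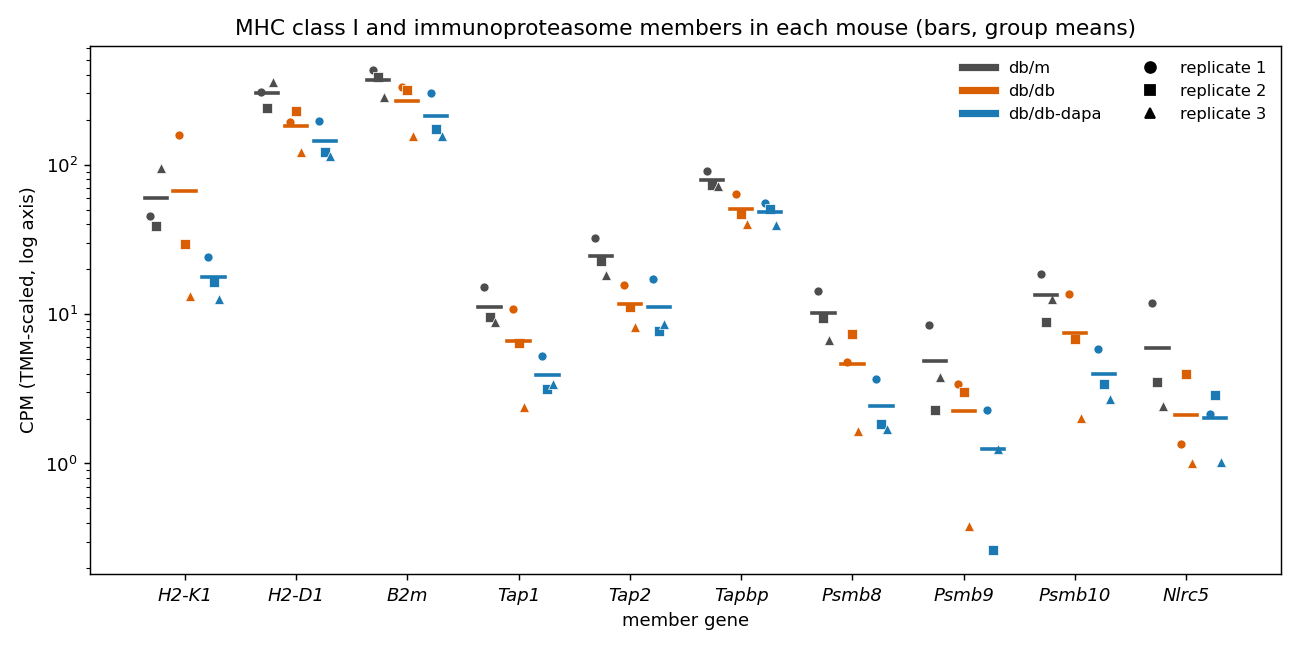
CPM (TMM-scaled, log axis) of the 10 members in each of the 9 mice, colored by group, with the marker shape giving the replicate and bars the group means. *H2-K1* of *db/db* replicate 1 lies at 158 CPM, above its *db/m* mice, and *db/m* replicate 1 is the highest mouse for 8 of the 10 members.

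Group means followed one order in 9 of 10 members, with *db/m* highest and *db/db*-dapa lowest; the exception was *H2-K1*, with *db/db* above *db/m*. Mean *H2-D1* was 301 ± 58.8 CPM (SD, n = 3) in *db/m*, 181 ± 53.7 for *db/db* and 145 ± 45.0 for *db/db*-dapa. Mean *Psmb8* was 10.1 ± 3.89 CPM in *db/m*, 4.60 ± 2.88 for *db/db* and 2.41 ± 1.11 for *db/db*-dapa. Mean *H2-K1* was 59.8 ± 31.1 CPM in *db/m*, 67.0 ± 79.3 for *db/db* and 17.8 ± 5.92 for *db/db*-dapa. The highest mouse was *db/m* replicate 1 for 8 members, *db/m* replicate 3 for *H2-D1* and *db/db* replicate 1 for *H2-K1*. The lowest was *db/db* replicate 3 for 5 members, *db/db*-dapa replicate 3 for 3 and *db/db*-dapa replicate 2 for 2.

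Between genes, levels were compared as CPM per kb of the longest transcript. In *db/m* the order of these levels was *B2m* at 427 ± 87.5 (SD, n = 3), *H2-D1* at 143 ± 28.0, *H2-K1* at 31.9 ± 16.6, *Tapbp* at 27.1 ± 3.55, *Psmb10* at 10.2 ± 3.66, *Tap2* at 7.10 ± 2.12, *Psmb8* at 5.32 ± 2.04, *Tap1* at 2.86 ± 0.873, *Psmb9* at 1.68 ± 1.13 and *Nlrc5* at 0.781 ± 0.677. Neighbors in that order were separate in every mouse for *B2m* and *H2-D1*, for *H2-D1* and *H2-K1*, and for *Tapbp* and *Psmb10*; the other neighbors overlapped. The means of the *db/db* mice gave the same order of CPM per kb, from *B2m* at 312 ± 114 to *Nlrc5* at 0.280 ± 0.216. There *H2-D1* at 86.0 ± 25.5 overlapped *H2-K1* at 35.7 ± 42.3. The mean of *H2-K1* stood above that of *Tapbp* only through *db/db* replicate 1, its highest mouse at 84.3. Its lowest mouse was at 7.08, and *Tapbp* lay between 13.9 and 21.9. For *db/db*-dapa, *B2m* at 245 ± 93.7 CPM per kb led *H2-D1* at 68.8 ± 21.4, *Tapbp* at 16.7 ± 2.86 stood above *H2-K1* at 9.49 ± 3.16 in every mouse, and *Tap2* at 3.25 ± 1.52 and *Psmb10* at 3.04 ± 1.24 overlapped. The remaining *db/db*-dapa levels were *Psmb8* at 1.26 ± 0.584 CPM per kb, *Tap1* at 1.01 ± 0.294, *Psmb9* at 0.437 ± 0.348 and *Nlrc5* at 0.266 ± 0.124.

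The comparison of *db/db* with *db/m* addresses the diabetic state. Fitted fold changes were below 0 for 9 of 10 members, against 48.4% of all tested genes, and no member passed the test. Called means an adjusted p under 0.1 in edgeR and an absolute log2 fold change over 1. By this rule 0 of 10 members were called, where 1.24% of all tested genes were, and by adjusted p alone 0 of 10, where 1.67% were. At an unadjusted p under 0.05 there were 4 members, *H2-D1*, *Tap2*, *Tapbp* and *Psmb8*, where 13.7% of all tested genes were. DESeq2 called 1 member, *Tap2*, among 2.33% of genes called, and limma (1.28% of all genes called) and limma-voom with sample quality weights (1.68%) called 0. With replicate number as a block edgeR also called *Tap2* (adjusted p = 0.0803, 1.19% of all genes called). In that fit 8 members had an unadjusted p under 0.05, as did 1854 of the 15583 genes. For *H2-D1*, *Tap2* and *Tapbp*, 3 of 10 members, the groups did not overlap and *db/db* was lower, where 8.13% of all tested genes showed this. The exact two-sided permutation p of 3 mice against 3 cannot go below 0.1, the value each of these 3 members had.

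Log2 fold changes of *db/db* against *db/m* in the presenting chains were 0.13 for *H2-K1* (SE 0.70, adjusted p = 0.952), −0.74 for *H2-D1* (SE 0.28, adjusted p = 0.265) and −0.46 for *B2m* (SE 0.32, adjusted p = 0.572). In transport and loading the log2 fold changes were −0.85 for *Tap1* (SE 0.47, adjusted p = 0.460), −1.10 for *Tap2* (SE 0.36, adjusted p = 0.212) and −0.66 for *Tapbp* (SE 0.21, adjusted p = 0.205). In the immunoproteasome they were −1.18 for *Psmb8* (SE 0.52, adjusted p = 0.347), −1.22 for *Psmb9* (SE 0.81, adjusted p = 0.550) and −0.92 for *Psmb10* (SE 0.56, adjusted p = 0.502). *Nlrc5* had a log2 fold change of −1.49 (SE 0.70, adjusted p = 0.379), lower in 2 of 3 *db/db* mice than in every *db/m* mouse. The median log2 fold change of the 10 members was −0.89, against 0.02 for all genes tested. Single mice weighed on the result: without *db/db* replicate 1 the log2 fold change of *H2-K1* was −1.49, the median −1.33, and 6 members were lower with no overlap (12.7% of all genes). The latter count was 5 without *db/db* replicate 2 (13.9% of all genes) or *db/m* replicate 3 (13.5%). Leaving out *db/db* replicate 3 gave a median of −0.53, with *Tap1* at −0.41 and *B2m* at −0.19, and leaving out *db/m* replicate 1 gave −0.55, with *Nlrc5* at −0.49 and *Psmb9* at −0.50. *Psmb8* lay between −1.80 (*db/db* replicate 2 out) and −0.72 (*db/db* replicate 3 out), and *Psmb10* between −1.64 (*db/db* replicate 1 out) and −0.43 (*db/db* replicate 3 out). *Tap1* reached −1.39 with *db/db* replicate 1 out, and *Nlrc5* −2.37 with *db/db* replicate 2 out. The *H2-K1* value also turned negative, to −0.03 and −0.10, without *db/m* replicate 1 or 2, to −0.39 with replicate number as a block, and to −0.45 in limma.

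The comparison of *db/db*-dapa with *db/m* sets treated diabetic mice against the nondiabetic controls. All 10 members had fitted fold changes below 0, against 51.5% of all tested genes, with a median log2 fold change of −1.55 against −0.02 for all genes, and no member passed the test in edgeR. In edgeR 0 of 10 members were called, where 1.05% of all tested genes were, and 0 had an adjusted p under 0.1, where 1.31% did. All 10 had an unadjusted p under 0.05, where 18.2% of all tested genes did. DESeq2 called 5 members, *Tap1*, *Psmb8*, *Tap2*, *H2-D1* and *Psmb10*, with 3.25% of all genes called, limma called 0, and limma-voom with sample quality weights called 9, all but *Tapbp*, with 10.4% of all genes called. The groups did not overlap, with *db/db*-dapa lower, in 7 of 10 members, where 13.7% of all tested genes showed this; the others were *B2m*, *Psmb9* and *Nlrc5*.

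Log2 fold changes of *db/db*-dapa against *db/m* in the presenting chains were −1.75 for *H2-K1* (SE 0.73, adjusted p = 0.251), −1.06 for *H2-D1* (SE 0.28, adjusted p = 0.122) and −0.80 for *B2m* (SE 0.32, adjusted p = 0.241). In transport and loading the values were −1.52 for *Tap1* (SE 0.47, adjusted p = 0.173), −1.14 for *Tap2* (SE 0.35, adjusted p = 0.172) and −0.70 for *Tapbp* (SE 0.21, adjusted p = 0.167). In the immunoproteasome they were −2.09 for *Psmb8* (SE 0.53, adjusted p = 0.112), −1.95 for *Psmb9* (SE 0.81, adjusted p = 0.249) and −1.75 for *Psmb10* (SE 0.56, adjusted p = 0.182). *Nlrc5* had a log2 fold change of −1.58 (SE 0.68, adjusted p = 0.258). The count of members called in edgeR depended on which mice entered the fit: it was 6 with only the 6 mice compared (4.15% of all genes called), 6 without *db/db* replicate 3 (4.27%), 3 without *db/db*-dapa replicate 1 (1.64%) and 1 without *db/db* replicate 1 (1.51%). It was 2 with no filter on low values (1.52%) and 2 with replicate number as a block (1.07%). Without *db/m* replicate 1, *Nlrc5* stood at −0.57 and *Psmb9* at −1.25.

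The comparison of *db/db*-dapa with *db/db* addresses dapagliflozin itself. Fitted fold changes were below 0 for 10 of 10 members, against 51.2% of all tested genes, no member passed the test, and the groups overlapped for every member. In edgeR 0 of 10 members were called, where 0% of all tested genes were, and 0 had an adjusted p under 0.1, also with 0% of all genes. One member, *H2-K1*, had an unadjusted p under 0.05, where 5.19% of all tested genes did; DESeq2 (0.0834% of all genes called), limma (0%) and limma-voom with sample quality weights (2.88%) called 0 members. In 0 of 10 members were the groups free of overlap with *db/db*-dapa lower, where 5.29% of all tested genes showed this. Log2 fold changes in the presenting chains were −1.88 for *H2-K1* (SE 0.73, adjusted p = 0.854), −0.32 for *H2-D1* (SE 0.28, adjusted p = 0.854) and −0.35 for *B2m* (SE 0.32, adjusted p = 0.858). In transport and loading they were −0.67 for *Tap1* (SE 0.49), −0.04 for *Tap2* (SE 0.36) and −0.04 for *Tapbp* (SE 0.21). In the immunoproteasome they were −0.90 for *Psmb8* (SE 0.55), −0.73 for *Psmb9* (SE 0.86) and −0.83 for *Psmb10* (SE 0.58), and *Nlrc5* stood at −0.08 (SE 0.73). The median over members was −0.51, against −0.01 for all genes.

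Single mice changed these values. Without *db/db* replicate 3, *H2-K1* was called here, with a log2 fold change of −2.36 (adjusted p = 0.0901, 1.75% of all genes called; adjusted p between 0.0901 and 1.0 over all alternatives), and 6 members were lower with no overlap, where 19.9% of all genes were; the median was −0.85. Without *db/db* replicate 1 the log2 fold change of *H2-K1* was −0.26, *Tap2* and *Tapbp* turned to 0.21 and 0.16, and the median was −0.21; leaving out *db/db* replicate 2 gave −0.25, and leaving out *db/db*-dapa replicate 1 gave −0.80. *Nlrc5* turned to 0.80 without *db/db* replicate 2 and to 0.26 without *db/db*-dapa replicate 3. The last mouse also turned *Tap2* to 0.14 and *Tapbp* to 0.11 when left out, and without *db/db*-dapa replicate 2 *Tap2* stood at 0.18. In limma *Nlrc5* stood at 0.02. *Tap1* lay between −1.10 (*db/db* replicate 3 out) and −0.13 (*db/db* replicate 1 out), and *Psmb10* between −1.31 and −0.11 for the same mice. *Psmb8* lay between −1.36 (*db/db* replicate 3 out) and −0.29 (*db/db* replicate 2 out), and *Psmb9* between −1.39 and −0.25 (*db/db*-dapa replicates 1 and 2 out). *H2-D1* lay between −0.59 (*db/db*-dapa replicate 1 out) and −0.12 (*db/db* replicate 2 out), and *B2m* between −0.70 and −0.16 (*db/db*-dapa replicates 1 and 3 out).

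The comparisons with *db/m* share their control mice, so their values for the members are not independent. Side by side, the log2 fold change of *Tap2* was −1.10 for *db/db* and −1.14 for *db/db*-dapa, that of *Tapbp* was −0.66 and −0.70, and that of *Psmb8* was −1.18 and −2.09. With both *db/db* replicate 1 and *db/m* replicate 3 left out, a choice made after the data were seen, 8 members for *db/db* (18.8% of all genes) and 9 for *db/db*-dapa (19.7%) were below *db/m* with no overlap, and edgeR called 0 in each comparison. The members' medians were then −1.48, −1.48 and −0.21 for *db/db* against *db/m*, *db/db*-dapa against *db/m*, and *db/db*-dapa against *db/db*.

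The members' levels were correlated across mice. Pearson's r between log2(CPM + 1) of 2 members over the 9 mice, which include the group differences, had a median of 0.855 over 45 pairs, with a lowest value of 0.182 and a highest of 0.982. Without *H2-K1* and *Nlrc5*, chosen after their values were seen, the 28 pairs lay between 0.781 and 0.982, with a median of 0.888. The mean z-score of the 10 members was 1.44, 0.593 and 0.667 in *db/m*, 0.462, 0.110 and −1.22 in *db/db*, and −0.0680, −0.900 and −1.08 in *db/db*-dapa. By this score the *db/m* mice were the highest 3, *db/db* replicates 1 and 2 lay between, and *db/db* replicate 3 lay below all *db/db*-dapa mice. Among 10508 genes with a mean of at least 5 CPM, the members left out, those most like this score over the 9 mice were *S100a11* (r = 0.980), *4930592A05Rik* (0.975), *Lgals3* (0.974), *1810037I17Rik* (0.970), *Sf3b6* (0.969), *Nucb2* (0.964), *Snrpd1* (0.963) and *Ngdn* (0.962). The least alike were *Cnot1* (r = −0.992), *Gtf3c3* (−0.983) and *Prrc2b* (−0.981). The like genes have longest transcripts between 511 and 1913 bases, and the unlike ones between 4582 and 10671 bases.

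Values of other cell types and of transcript length are given beside the members. Of the 30 leukocyte markers, 9 were lower by fitted fold change for *db/db* against *db/m*, 29 for *db/db*-dapa against *db/m* and 28 between the *db/db* groups; 0 were called in edgeR in each comparison, with 1, 1 and 5 at an unadjusted p under 0.05, 0 called by DESeq2 or limma, and 0, 13 and 5 by limma-voom with quality weights. Their median log2 fold changes were 0.36, −0.99 and −1.20, and −0.97 and −1.10 in the latter comparisons with *Ms4a1*, at 0 in all *db/db*-dapa mice, set at its floor. With single mice left out, the first median lay between −0.22 (*db/db* replicate 2 out) and 0.92 (*db/db* replicate 3 out), the next between −1.61 (*db/db*-dapa replicate 1 out) and −0.53 (*db/m* replicate 1 out), and the last between −1.87 (*db/db*-dapa replicate 1 out) and −0.71 (*db/db* replicate 2 out). The members' longest transcripts run from 860 bases in *B2m* to 7578 bases in *Nlrc5*. Over all 5174 tested genes under 2500 bases the median log2 fold change was −0.16 in *db/db* against *db/m*, −0.27 in *db/db*-dapa against *db/m* and −0.10 in *db/db*-dapa against *db/db*. Over the 3119 genes above 5000 bases it was 0.28, 0.33 and 0.06. With the trend over transcript length removed, an alternative added after the data were seen, the members' medians were −0.85, −1.55 and −0.49, and edgeR called 0 members.

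Markers of other cell types are given in the order *db/db* against *db/m*, *db/db*-dapa against *db/m*, and treated against untreated *db/db* mice. By fitted fold change 9, 11 and 11 of 12 distal nephron markers were lower, as were 0, 7 and 7 of 7 erythroid, 0, 4 and 12 of 12 endothelial, 6, 5 and 4 of 8 mesenchymal, and 1, 0 and 0 of 5 podocyte markers. EdgeR and limma called 0 of these in each comparison. At an unadjusted p under 0.05 in edgeR there were 1, 5 and 0 distal nephron, 0, 1 and 0 mesenchymal, 0, 2 and 0 podocyte and 0 endothelial or erythroid markers. DESeq2 called 1, 3 and 0 distal nephron markers and 0 of the others, and limma-voom with quality weights called 0, 5 and 2 distal nephron, 0, 6 and 2 erythroid, 0, 0 and 4 endothelial, 0, 3 and 1 mesenchymal and 0 podocyte markers. Median log2 fold changes were −0.30, −0.62 and −0.42 for distal nephron, 0.89, −1.22 and −1.95 for erythroid, 0.62, 0.16 and −0.43 for endothelial, −0.39, −0.45 and 0.02 for mesenchymal, and 0.38, 0.79 and 0.78 for podocyte markers. Single libraries turned several of these. The mesenchymal median in *db/db* against *db/m* was 0.045 with *db/db* replicate 3 left out. Without *db/db*-dapa replicate 3 the mesenchymal medians were 0.017 against *db/m* and 0.361 against *db/db*. The endothelial median between the *db/db* groups was then −0.006. The distal nephron median between these groups was −0.164 with *db/db* replicate 1 left out. With *db/db* replicate 2 left out the erythroid medians were −1.47 in *db/db* against *db/m* and 0.36 between the *db/db* groups, and the first podocyte median was −0.21. With *db/db*-dapa replicate 1 left out the podocyte medians were −1.09 against *db/m* and −1.08 against *db/db*, the endothelial medians −0.87 and −1.55, the mesenchymal medians −1.40 and −1.29, and the erythroid medians −2.91 and −3.63. With *db/m* replicate 3 left out the distal nephron medians against *db/m* were 0.14 and −0.27, and the endothelial ones 1.19 and 0.64. The part of the cell types in the members' result was not tested.

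**Figure D2:**
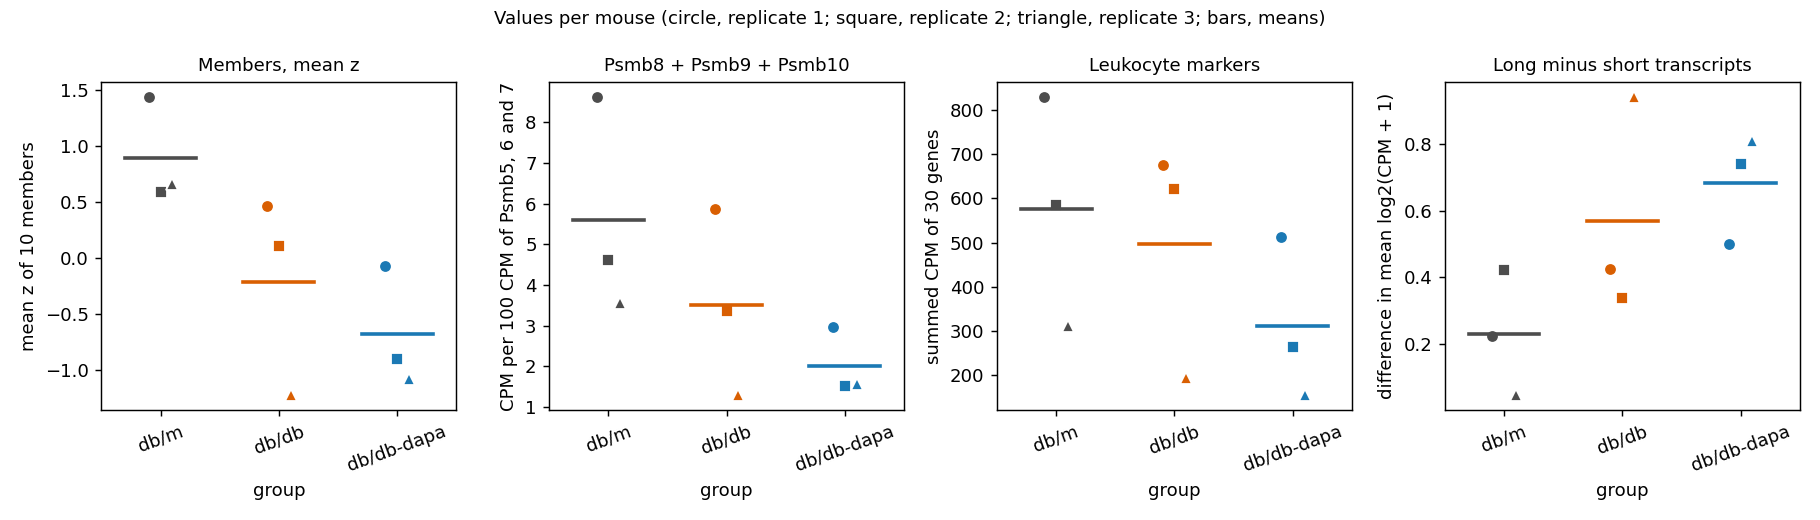
Each panel gives one value per mouse by group, with bars at the group means: the members' mean z-score, *Psmb8*, *Psmb9* and *Psmb10* in CPM per 100 CPM of *Psmb5*, *Psmb6* and *Psmb7*, the summed CPM of 30 leukocyte markers, and the difference in mean log2(CPM + 1) between long and short transcripts. In *db/db* replicate 3 the members' score is −1.22, the leukocyte sum 195 CPM and the length difference 0.94.

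The other MHC class I chains include nonclassical molecules that present lipids or bind immunoglobulin or iron regulators. Of 27 listed, 24 were tested, and *H2-T3* was at 0 in every mouse. *H2-Q6* and *H2-Q8* carry the same counts in the table, as do *H2-Q7* and *H2-Q9*, and *H2-T9* and *H2-T22* nearly so. By fitted fold change 20 were lower for *db/db* against *db/m*, 23 for *db/db*-dapa against *db/m* and 18 for the treated against the untreated *db/db* mice, with median log2 fold changes of −0.53, −0.74 and −0.26. With *H2-M2* and *H2-Bl*, at 0 in all *db/db*-dapa mice once counts were rounded (*H2-Bl* was deposited with fractions), set at their floor, the latter medians were −0.68 and −0.25. The first median was −0.31 with *db/db* replicate 3 left out, and the last was −0.07 with *db/db* replicate 1 left out. EdgeR called 1 gene in each comparison with *db/m* and 0 between the *db/db* groups, with 5, 12 and 3 at an unadjusted p under 0.05; DESeq2 called 1, 2 and 0, limma 1, 1 and 0, and limma-voom with quality weights 1, 8 and 0. The gene called by edgeR was *Azgp1*, whose product is a soluble class I-like protein linked to lipid mobilization. *Azgp1* was measured at 141, 121 and 121 CPM in *db/m*, 10.9, 21.8 and 39.0 CPM in *db/db*, and 43.9, 34.0 and 53.6 CPM in *db/db*-dapa. Every mouse of the *db/db* groups lay below every *db/m* mouse. *Azgp1* fell by 2.37 on the log2 scale in *db/db* against *db/m* (SE 0.35, adjusted p = 0.0131, lower in 3 of 3 mice; between 3.33e-08 and 0.0725 over its alternatives) and by 1.54 in *db/db*-dapa against *db/m* (SE 0.34, adjusted p = 0.0833, lower in 3 of 3 mice).

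The second call of *Azgp1* was lost without any one *db/m* or *db/db*-dapa mouse (adjusted p = 0.291, 0.143 and 0.235 without *db/m* replicates 1, 2 and 3, and 0.118, 0.403 and 0.225 without *db/db*-dapa replicates 1, 2 and 3), without *db/db* replicate 2 (0.109), in limma on log2(CPM + 0.1) (0.102), and with the length trend removed (0.153); over all its alternatives the adjusted p ran from 0.000888 to 0.403. In the fits that lost the call its log2 fold change lay between −1.70 and −1.30. In *db/db*-dapa against *db/db*, *Azgp1* had a log2 fold change of 0.83 (SE 0.34, adjusted p = 0.854), and 1.39 without *db/db* replicate 3 (adjusted p = 0.0758, a call; between 0.0758 and 1.0 over its alternatives). With *db/db* replicate 1 left out it was 0.52.

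Of the genes for other steps of peptide loading and trimming, 8, 5 and 2 of 14 were lower by fitted fold change. All 14 were tested, 0 were called in edgeR in any comparison, and 0, 3 and 0 had an unadjusted p under 0.05 in *db/db* against *db/m*, *db/db*-dapa against *db/m* and *db/db*-dapa against *db/db*. Their median log2 fold changes were −0.03, 0.07 and 0.19. In *db/db* against *db/m* the highest log2 fold changes were 1.14 for the aminopeptidase *Lnpep* and 0.34 for the glycoprotein folding sensor *Uggt1*, and the lowest were −0.32 for the translocon subunit *Sec61b* and −0.27 for the peptidase *Nrd1*. In *db/db*-dapa against *db/m* they were 1.36 for *Lnpep*, 0.62 for the aminopeptidase *Npepps*, −0.51 for *Sec61b* and −0.21 for *Nrd1*. With *db/m* replicate 3 left out, *Nrd1* stood at −0.17 and −0.11 in these comparisons and *Sec61b* at −0.16 and −0.34. *Lnpep* was measured at 10.1, 11.3 and 6.44 CPM in *db/m*, 9.86, 10.4 and 39.5 CPM in *db/db*, and 13.2, 24.7 and 34.1 CPM in *db/db*-dapa. Its *db/db*-dapa mice all lay above its *db/m* mice, and within *db/db* replicate 3 stood alone. Without that mouse the log2 fold change of *Lnpep* in *db/db* against *db/m* was 0.11, that of *Uggt1* 0.05 and that of *Sec61b* −0.11. DESeq2 and limma called 0 genes of this list, and limma-voom with quality weights called 1, *Lnpep*, for *db/db*-dapa against *db/m*. EdgeR called *Lnpep* there with only the 6 mice compared (adjusted p = 0.0629) and with *db/db* replicate 3 left out (0.0433); over its alternatives the adjusted p ran from 0.0232 to 0.576.

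Of the activator and constitutive catalytic subunits of the proteasome, listed together with *Pomp* and *Psmf1*, which are neither, 8, 6 and 7 of 10 were lower by fitted fold change. All 10 were tested and 0 were called by edgeR, DESeq2, limma or limma-voom with quality weights, with 1, 4 and 0 at an unadjusted p under 0.05 in the same order of comparisons, and median log2 fold changes of −0.26, −0.43 and −0.12. With *db/db* replicate 2 left out the first was −0.48 and the last 0.08, with *db/db* replicate 3 left out they were −0.17 and −0.30, and with *db/m* replicate 3 left out the first was −0.16. *Psmb5*, the constitutive counterpart of *Psmb8*, had log2 fold changes of −0.53 in *db/db* against *db/m* and −0.60 in *db/db*-dapa against *db/m*. With *db/m* replicate 3 left out these were −0.28 and −0.34. *Psme2*, an activator subunit that interferon gamma induces, had −0.40 (−0.18 with *db/db* replicate 3 left out) and −0.65. The highest were *Psmf1* at 0.10 in *db/db* (0.01 with *db/m* replicate 2 left out) and the activator *Psme4* at 0.42 in *db/db*-dapa, apart from *Psme2b*, which stayed at or under 1.0 CPM in every mouse and gets no fold change. *Psmb5* was measured at 160, 134 and 237 CPM in *db/m*, 109, 163 and 94.7 CPM in *db/db*, and 126, 118 and 106 CPM in *db/db*-dapa. Its *db/db*-dapa mice lay under its *db/m* mice, and its *db/db* mice overlapped both.

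Of the factors of the class I promoter, 7, 9 and 9 of 16 were lower by fitted fold change. All 16 were tested and 0 were called in edgeR or limma, while DESeq2 called 1, 0 and 0, with 2, 1 and 0 at an unadjusted p under 0.05 and median log2 fold changes of 0.04, −0.09 and −0.02. *Rfx5*, a subunit of the factor that recruits NLRC5, had log2 fold changes of 0.39 in *db/db* against *db/m* and 0.86 in *db/db*-dapa against *db/m*, and was measured at 10.4, 14.7 and 7.33 CPM in *db/m*, 14.3, 10.8 and 17.4 CPM in *db/db*, and 17.5, 21.8 and 19.7 CPM in *db/db*-dapa. The *db/db*-dapa mice were above all other mice, the lowest of them only just above *db/db* replicate 3. The value of *Rfx5* in *db/db* was 0.18 with *db/m* replicate 3 left out. Other log2 fold changes against *db/m* were 0.37 for the methyltransferase *Ezh2* (0.12 with *db/db* replicate 1 left out) and −0.59 for *Nfya* (−0.37 with *db/m* replicate 1 left out) in *db/db*. For *db/db*-dapa they were 0.60 for the class II transactivator *Ciita* (0.27 and 1.30 with *db/m* replicates 2 and 1 left out) and −0.24 for *Rfxank* (−0.09 with *db/m* replicate 3 left out).

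Interferon signalling genes, 24 of 26 tested, had median log2 fold changes of 0.04, 0.03 and 0.01, with 0 called in edgeR and limma and 3, 3 and 0 at an unadjusted p under 0.05; DESeq2 called 1, 1 and 0, and limma-voom with quality weights 0, 3 and 0. The lowest was *Socs1*, a feedback inhibitor of the pathway, at 2.84, 2.44 and 4.22 CPM in *db/m*, 0.680, 2.2 and 0.379 CPM in *db/db*, and 0.568, 0.919 and 0.792 CPM in *db/db*-dapa. All *db/m* mice were above all others. Its log2 fold change was −1.54 in *db/db* (SE 0.63, adjusted p = 0.311; −2.65 with *db/db* replicate 2 left out, −1.02 with *db/db* replicate 3 left out) and −2.02 in *db/db*-dapa (SE 0.62, adjusted p = 0.172) against *db/m*. DESeq2 called the latter (adjusted p = 0.0639), and edgeR did without *db/db* replicate 3 (adjusted p = 0.0578) and with only the 6 mice compared (0.0555); over its alternatives the adjusted p ran from 0.0164 to 0.482. The interferon regulatory factor *Irf7* stood at −1.53 on the log2 scale for *db/db*-dapa against *db/m* (−0.68 with *db/m* replicate 1 left out), where *Irf8* had 0.50 (0.31 with *db/m* replicate 3 left out). In *db/db* against *db/m* the highest values were 0.66 for the innate immune adaptor *Tmem173* (0.25 with *db/db* replicate 1 left out) and 0.56 for the feedback inhibitor *Socs3*, which stood at −0.02 without *db/db* replicate 2. *Mb21d1* was the highest gene in *db/db*-dapa but stayed at or under 0.994 CPM in every mouse and gets no fold change.

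All 52 listed genes that interferon induces were tested, and by fitted fold change 45 were lower for *db/db* against *db/m*, 45 for *db/db*-dapa against *db/m* and 26 between the *db/db* groups. EdgeR and limma called 0 in each comparison, with 14, 16 and 2 at an unadjusted p under 0.05 in edgeR; DESeq2 called 4, 5 and 0, and limma-voom with quality weights 0, 27 and 1. Median log2 fold changes were −0.84, −1.01 and −0.02, and −0.98 and 0.01 in the latter comparisons with *Oas3*, at 0 in all *db/db*-dapa mice once fractional counts were rounded, set at its floor. Without *db/m* replicate 1 the medians against *db/m* were −0.44 and −0.56, and without *db/db* replicate 3 the first was −0.53 and the last −0.41. The guanylate-binding protein gene *Gbp6* was measured at 61.9, 35.6 and 9.77 CPM in *db/m*, 6.12, 12.0 and 2.53 CPM in *db/db*, and 24.7, 7.09 and 11.3 CPM in *db/db*-dapa. The *db/m* mice were far apart from each other and the groups overlapped. Its log2 fold change in *db/db* against *db/m* was −2.42 (SE 0.70, adjusted p = 0.167), and it was called by DESeq2 (adjusted p = 0.0152) and without *db/m* replicate 3 (adjusted p = 0.0972; between 0.0152 and 0.446 over its alternatives). The chemokine gene *Cxcl9* had −2.56 (SE 1.20), with levels of at most 2.00 CPM. All its *db/db* mice lay under the floor of 3 counts. Leaving out single mice moved it to between −3.45 (*db/db* replicate 2) and −1.75 (*db/db* replicate 3), and other settings to as little as −0.889. The highest in *db/db* apart from *Mx1*, which stayed at or under 0.800 CPM, was *Ifit2* at 0.36 (0.01 with *db/m* replicate 3 left out). In *db/db*-dapa against *db/m* the highest were *Gbp7* at 0.66 (0.12 with *db/m* replicate 3 left out, 1.49 with *db/m* replicate 2 left out) and *Cmpk2* at 0.55. The lowest apart from *Oas3* was *Zbp1* at −2.37 (SE 1.04), with levels of at most 1.40 CPM. All *db/db*-dapa mice lay under the floor of 3 counts for *Zbp1*. Its value lay between −3.26 (*db/db*-dapa replicate 1 out) and −1.74 (*db/m* replicate 1 out), and reached −0.571 under other settings. Summed CPM of the 52 genes was 956, 626 and 432 in *db/m*, 421, 438 and 327 in *db/db*, and 490, 438 and 378 in *db/db*-dapa, with *db/m* replicate 1 highest.

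The members also share a place in the genome. Of the 10, 7 lie within 1351601 bases of chromosome 17 (chr17:33915899-35267499, GRCm38, GENCODE gene bodies), in the major histocompatibility complex, in the order *Tapbp*, *H2-K1*, *Psmb9*, *Tap1*, *Psmb8*, *Tap2* and *H2-D1*. *Psmb9*, *Tap1*, *Psmb8* and *Tap2* fill 34335 bases of it (chr17:34181987-34216321). *Nlrc5* (chr8:94434356-94527272) and *Psmb10* (chr8:105935735-105938444) lie on chromosome 8 and *B2m* (chr2:122147686-122153083) on chromosome 2. *Psmb9*, on the minus strand, and *Tap1*, on the plus strand, overlap by 212 bases (chr17:34187553-34187764), and whether counting used the strand is not stated. Of the 2002 windows of 101 bases, the read length, in the longest *H2-D1* transcript, 92 (4.60%) occur in another gene as well, most of them in *H2-Q1*. *Tapbp* shared 2 of its 2798 windows and the other 8 members shared 0.

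**Figure D3:**
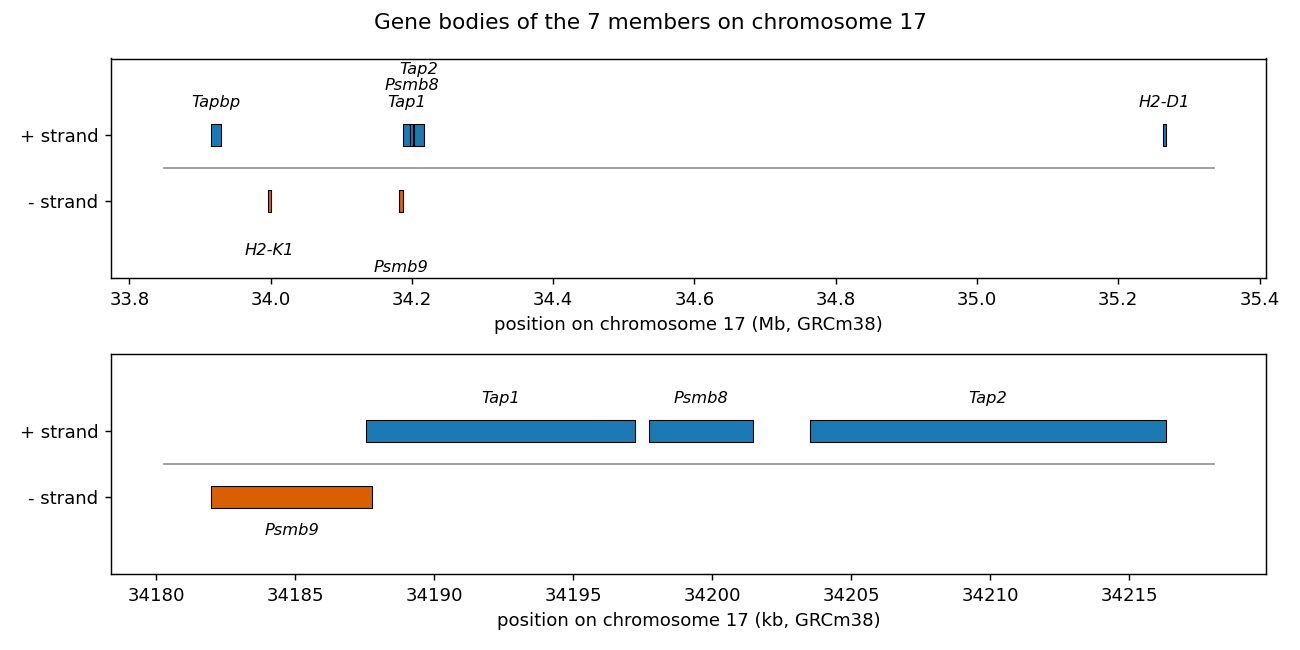
Gene bodies of the 7 members on chromosome 17 (GRCm38), with position in Mb above and in kb below on the horizontal axis and the strand on the vertical axis. The lower map shows the 34335 bases that hold *Psmb9*, *Tap1*, *Psmb8* and *Tap2*, and the 212-base overlap of *Psmb9* and *Tap1*.

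Promoters were read from the RefSeq table (GRCm38.p6, windows of 300 bases around each start), where 8 of 10 members have entries, 9 in all, and *Tap2* and *Nlrc5* have none. Searched on both strands were GAAANNGAA (interferon-stimulated response element), TTCNNNGAA (gamma-activated site), GGGNNTTCC (kappa B), CCAAT (Y box) and TGACG (X2 box). They occur in 8.56%, 8.30%, 5.82%, 37.4% and 20.8% of all 32851 promoters of that length. The sequences of the presenting chains and of *Tap1*, whose levels were correlated over the mice, are shown so that the motifs can be compared. Capitals mark matches to these motifs on either strand, none of which overlap each other. *H2-K1* is printed from the first of its 2 entries (chr17:34000298-34000597, minus strand), *H2-D1* from chr17:35262844-35263143 (plus strand), *B2m* from chr2:122147437-122147736 (plus strand) and *Tap1* from chr17:34187306-34187605 (plus strand).
H2-K1: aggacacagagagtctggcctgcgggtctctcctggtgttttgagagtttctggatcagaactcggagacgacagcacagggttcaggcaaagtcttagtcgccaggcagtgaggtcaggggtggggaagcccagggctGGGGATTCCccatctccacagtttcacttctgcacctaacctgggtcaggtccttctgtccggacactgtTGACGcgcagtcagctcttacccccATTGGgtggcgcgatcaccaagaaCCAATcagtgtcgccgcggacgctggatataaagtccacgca
H2-D1: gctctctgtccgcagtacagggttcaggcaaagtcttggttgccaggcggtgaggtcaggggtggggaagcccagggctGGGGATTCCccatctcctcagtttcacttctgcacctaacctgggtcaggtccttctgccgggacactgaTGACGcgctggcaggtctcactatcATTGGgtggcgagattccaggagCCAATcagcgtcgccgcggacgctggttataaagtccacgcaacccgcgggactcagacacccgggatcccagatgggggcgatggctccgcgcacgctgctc
B2m: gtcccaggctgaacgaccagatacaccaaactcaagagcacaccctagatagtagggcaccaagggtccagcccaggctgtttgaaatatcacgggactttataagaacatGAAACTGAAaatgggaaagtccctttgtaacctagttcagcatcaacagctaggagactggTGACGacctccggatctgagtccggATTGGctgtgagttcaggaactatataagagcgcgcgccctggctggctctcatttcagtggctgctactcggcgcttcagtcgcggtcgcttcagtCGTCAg
Tap1: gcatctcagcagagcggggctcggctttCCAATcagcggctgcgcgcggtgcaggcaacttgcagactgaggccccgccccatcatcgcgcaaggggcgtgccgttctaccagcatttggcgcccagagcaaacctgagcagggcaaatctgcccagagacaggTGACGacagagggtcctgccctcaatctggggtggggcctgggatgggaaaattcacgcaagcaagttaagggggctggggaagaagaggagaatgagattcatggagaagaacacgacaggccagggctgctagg

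*H2-K1* and *H2-D1* each hold a kappa B match, GGGGATTCC, then an X2 box match, a Y box match on the opposite strand (ATTGG) and a forward Y box match in the same order. At the best shift without gaps their windows are identical at 176 of 240 bases (73.3%). *B2m* holds an interferon-stimulated response element match, GAAACTGAA, then an X2 box match, a reversed Y box match and a reversed X2 box match (CGTCA), the last 45 bases after the start. From the X2 box match to the reversed Y box match the first bases are 25 apart in *H2-K1*, *H2-D1* and *B2m*, a spacing that 31 of 32851 promoters have (0.0944%) and no other member's entry has; this spacing was looked for after the matches were seen. *Tap1* holds a Y box and an X2 box match without this spacing, and its window overlaps that of *Psmb9* by 275 bases (chr17:34187306-34187580). *Psmb8* holds a gamma-activated site match, TTCCCAGAA, *Tapbp* holds 2 Y box matches, and *Psmb10* holds no match. A match describes the letters of the window and was not tested for binding. Sites that depart from the searched letters are not marked, so a window without a match may still hold a variant of that element.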

How the data were processed

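The deposited table, named as FPKM, holds estimated counts per gene and mouse from the authors, since 85.9% of its values above 0 are exactly whole as deposited and its columns differ in total. The authors mapped 101-base single-end stranded poly(A) reads to mm10 with TopHat2 2.0.13, Bowtie2 2.2.3 and SAMtools 0.1.19 and named Cufflinks 2.2.1; how counts were estimated is not stated. All 9 mice were used, and 0 sample columns were left out. Counts were rounded and tested in R 4.3.3 with edgeR 4.0.16 (quasi-likelihood F test, TMM scaling) on the 15583 genes at or above 0.3 CPM in at least 2 of 9 mice, with Benjamini-Hochberg adjustment over all of them. SE is the absolute log2 fold change over the square root of F. Calls needed both an adjusted p below 0.1 and a log2 fold change beyond 1 in size. Alternatives were DESeq2 1.42.0, limma 3.58.1 on log2(CPM + 1) and log2(CPM + 0.1), limma-voom with sample quality weights, other scalings and filters, a replicate block, only the 6 mice compared, and each mouse left out.

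Transcript lengths and positions came from GENCODE (GRCm38) and promoters from RefSeq (GRCm38.p6), matched by symbol; 95.9% of tested genes had a length. All 10 members are named; from other lists, genes among those called or else among the 2 highest and 2 lowest log2 fold changes against *db/m*; and the 8 genes most and the 3 least like the members' mean z-score. The members and lists were chosen with earlier results of these data known.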

Additional observations from a re-analysis of the deposited data

How the results depend on the processing

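In *db/db* against *db/m*, 0 members were called in edgeR, and 1 was with DESeq2 and 1 with the replicate block. In *db/db*-dapa against *db/m*, 0 were called, against 5 with DESeq2, 9 in limma-voom with sample quality weights, 2 with no filter, 2 with the replicate block and 6 with only the 6 mice compared, while the share of all genes called went from 1.05% to 3.25%, 10.4%, 1.52%, 1.07% and 4.15%. With one mouse left out the count ranged from 0 to 6 there (6 without *db/db* replicate 3), was 0 throughout in *db/db* against *db/m*, and ranged from 0 to 1 in *db/db*-dapa against *db/db*. With single mice left out, members lower with no overlap ranged from 3 to 6 in *db/db* against *db/m* (8.32% to 14.2% of all genes). They ranged from 7 to 10 in *db/db*-dapa against *db/m* (13.6% to 23.7%) and from 0 to 6 in *db/db*-dapa against *db/db* (5.34% to 19.9%). The count of 10 came without *db/m* replicate 3, where 20.2% of all genes showed this. Over the other settings the members lower with no overlap ranged from 2 to 8 and from 6 to 9 against *db/m*. They stayed at 0 between the *db/db* groups. Shares of all genes are not given for the other scalings. The highest of these counts came with both *db/db* replicate 1 and *db/m* replicate 3 left out, an alternative added after the data were seen. There 8 members were lower with no overlap in *db/db* against *db/m* (18.8% of all genes) and 9 in *db/db*-dapa against *db/m* (19.7%). The median log2 fold change of all 10 members in *db/db* against *db/m* was then −1.48. Fewer mice enter these fits; otherwise the cause was not tested.

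The replicate block pairs mice by number, a pairing that the labels do not describe. Correlations between mice of one number were −0.13, −0.24 and −0.32 in *db/db* against *db/m*, −0.0984, 0.221 and −0.173 in *db/db*-dapa against *db/m*, and 0.402, −0.159 and 0.563 in *db/db*-dapa against *db/db*. With the block, *H2-K1* turned to −0.39 in *db/db* against *db/m*. It also turned in limma (−0.45 on log2(CPM + 1), −0.47 on log2(CPM + 0.1)) and with both mice left out (−0.99), and ranged from −1.49 to 0.63 with one mouse left out. In the same comparison *Ezh2* turned to −0.089 with both mice left out, and *Socs3* ranged from −0.015 to 0.93 with one mouse left out. In *db/db*-dapa against *db/db*, *Nlrc5* turned to 0.017 and 0.055 in limma on log2(CPM + 1) and log2(CPM + 0.1), and *Tap2* and *Tapbp* to 0.21 and 0.16 with both mice left out. With one mouse left out, *Nlrc5* ranged from −0.49 to 0.80, *Tap2* from −0.47 to 0.21 and *Tapbp* from −0.16 to 0.16.

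In *db/db*-dapa against *db/m* no member changed sign: in 196 of its fits a member kept its side of the threshold, and in 34 it was called. The medians of the loading and trimming genes, the promoter factors and the interferon signalling genes lay between −0.129 and 0.305 over the 3 comparisons with one mouse left out, some on both sides of 0. With no TMM scaling the median log2 fold change of all genes in *db/db* against *db/m* moved to 0.13. Where a mouse was left out, 2 mice stand for their group and share the spread of the others. A level of 1.02 CPM rests on 3 counts in *db/db* replicate 1, where *Socs1* lay under it.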
